A study of Mus musculus with 6 samples.

Results

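The genes examined were 33 genes of glycolysis and of the response to low oxygen, taken as the rows of the deposited count table whose symbol equalled a listed gene name. All 33 were present among 45583 rows, and all 33 passed the filter on low counts that left 13741 genes for testing. They comprised 17 glycolytic enzymes, 4 transporters of glucose or lactate, 3 genes of the pyruvate dehydrogenase step and 9 genes of the hypoxia response.

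Glycolysis splits glucose into pyruvate in the cytosol and yields ATP without oxygen. Pyruvate then either enters mitochondria through the pyruvate dehydrogenase complex or is reduced to lactate, which monocarboxylate transporters carry across the cell membrane. When oxygen is low, prolyl hydroxylases stop marking the alpha subunits of the hypoxia-inducible factors (HIF) for destruction, and the stabilized factors bind short DNA elements and raise transcription of many glycolytic genes, glucose transporters and Vegfa. Hypoxia-inducible factor is controlled largely at the level of its protein, which RNA counts do not measure. The developing cortex relies strongly on glycolysis, in particular in its dividing progenitors.

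The libraries were made from the dissected brain cortex of 6 male fetuses at gestational day GD15.5. Of these, 3 came from dams given vehicle (peanut oil) and 3 from dams given bisphenol A (BPA) at a dose of 50 µg/kg over GD10.5-GD14.5. BPA is used to make plastics and epoxy linings and has estrogenic activity. The comparison asks what prenatal BPA does to RNA levels in the offspring's cortex. All fetuses, controls included, were of the Cyp19-EGFP strain, which on the FVBN background carries a bacterial artificial chromosome holding the aromatase gene Cyp19a1 with an EGFP reporter, and their genotype was labelled WT, SRY +. According to the study's methods the injections were subcutaneous, although its results section gives a later fetal age. The labels identify fetuses and not dams, so it cannot be seen whether fetuses of a group shared a litter, and the p-values measure only the spread between these samples. Libraries held 3444601 to 7180835 counts, with the fewest in BPA replicate 3, and the 33 genes took between 0.276% and 0.304% of them. All 10 dorsal pallium markers were detected, with a summed level of 3288 to 3816 CPM (counts scaled to the library total) in the vehicle libraries and 3472 to 3741 CPM in the BPA libraries. In bulk tissue, fewer cells of a type and less RNA per cell cannot be told apart.

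No member was called in either direction between BPA and vehicle. In edgeR's quasi-likelihood test with Benjamini-Hochberg adjustment over all 13741 genes, 0 of 33 members passed the threshold of 0.1, against 0% of all genes, and the adjusted p of every member was 0.9998. At an unadjusted p under 0.05 the count was also 0 of 33, where 2.20% of all genes reached that level, 1.02% higher and 1.18% lower in BPA. DESeq2, limma-voom and edgeR's likelihood ratio test likewise gave 0 members at either level. Fitted changes were small: 11 members lay above 0 and 22 below, where 49.5% of all genes lay below 0. The median log2 fold change (BPA minus vehicle) was -0.02 over the members and 0.002 over all genes tested. The 95% interval of the fold change stayed within 0.5 either side of 0 on the log2 scale for 25 of the 33 members, and within 1 for 32. The exception was Pgk1.

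The count at an unadjusted p under 0.05 depended on single libraries. Without vehicle replicate 2 it was 2, Pgk1 and Slc2a3, both lower in BPA, when 5.10% of all genes reached that level. Without BPA replicate 2 it was also 2, Pfkp higher and Pdha1 lower, against 4.02% of all genes. With both libraries omitted it was 4 of 33, Pfkp and Gapdh higher and Pgk1 and Pdha1 lower, against 6.99% of all genes. The smallest adjusted p among the members was then 0.594 in edgeR's quasi-likelihood test with Benjamini-Hochberg adjustment. These libraries also held the highest levels of choroid plexus markers (8 genes, of which 4 were tested), whose sum ran from 14.6 to 233 CPM in the vehicle group and from 16.1 to 371 CPM in the BPA group. The part of these markers in the counts was not tested.

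**Figure D1:**
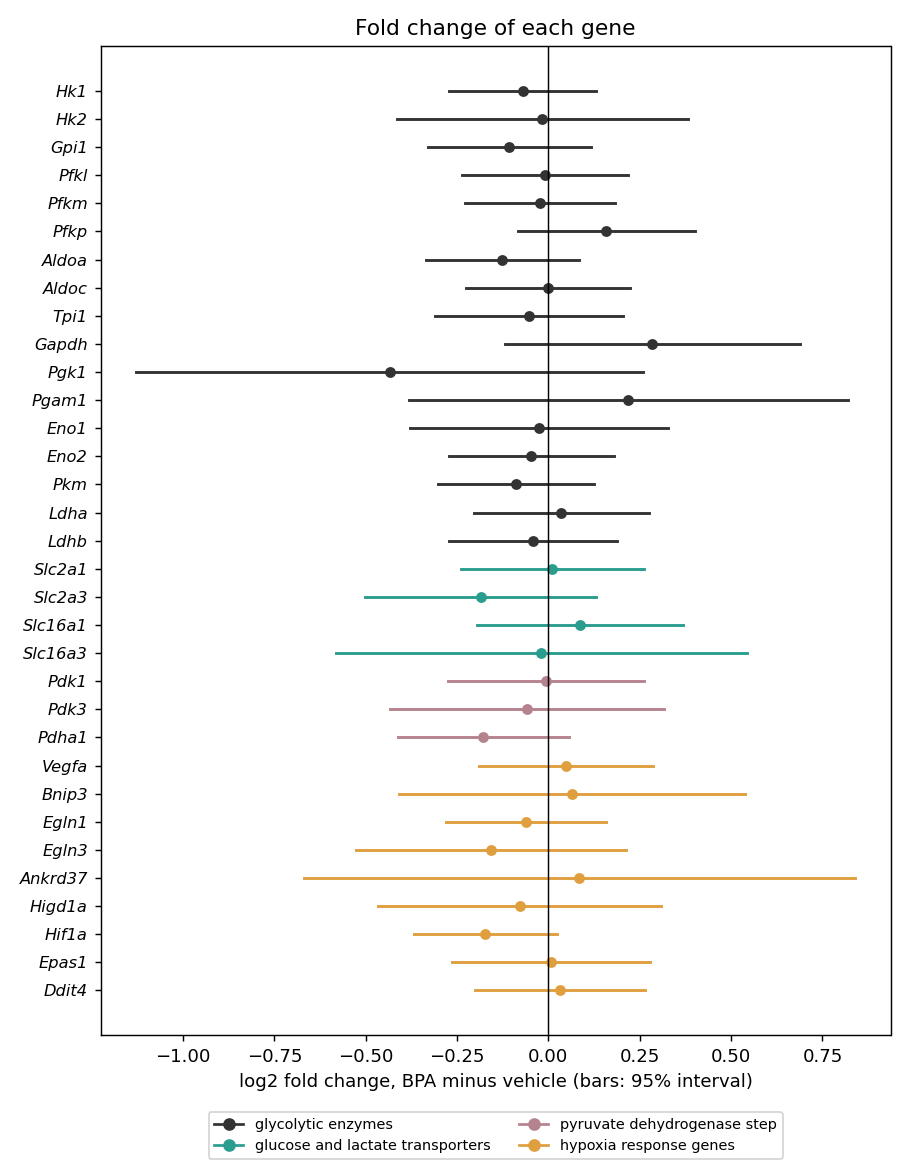
Log2 fold change (BPA minus vehicle, x axis) of each of the 33 genes with its 95% interval as a bar, coloured by role. Every interval crosses 0, and the widest, such as those of Pgk1 (-1.13 to 0.26) and Ankrd37 (-0.67 to 0.84), belong to genes with few counts.

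The glycolytic enzymes differed widely in level. Scaled to the length of their merged exons, the highest mean was that of Pkm, pyruvate kinase, which makes pyruvate and ATP, at 98.0 CPM per kilobase. Lactate dehydrogenase B (Ldhb) followed at 79.1, Aldoa, the muscle-type aldolase, at 65.0 and Ldha, which reduces pyruvate to lactate, at 52.1 CPM per kilobase. The order of these 3 depends on the length used. Merged exons of Ldhb, Aldoa and Ldha have 1570, 2911 and 3310 bases, and their main transcripts 1304, 1511 and 1766. The lowest were Pgk1, phosphoglycerate kinase, at 1.68, the phosphoglycerate mutase Pgam1 at 2.80, hexokinase Hk2 at 3.05 and Gapdh, the dehydrogenase that precedes phosphoglycerate kinase, at 3.73 CPM per kilobase. The levels listed for Pkm and Pgk1, enzymes of the same chain of reactions, thus lay far apart, and Pgk1, Pgam1, Gapdh and Eno1 (4.26 CPM per kilobase) each shared 41.5% to 82.5% of their transcript sequence, cut into words of read length, with other genes.

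Gapdh had 11.2, 16.2 and 14.4 CPM in the vehicle libraries and 20.4, 14.1 and 16.1 CPM in the BPA libraries. BPA replicate 1 was highest and vehicle replicate 1 lowest, and the groups overlapped. Its log2 fold change was 0.28 (SE 0.19, 95% interval -0.12 to 0.69), resting on 55 to 130 counts per library. It was 0.10 without BPA replicate 1, 0.14 without vehicle replicate 1 and 0.42 without vehicle replicate 2. Pgk1 was measured at 5.88, 2.82 and 4.34 CPM with vehicle and at 2.51, 3.90 and 3.21 CPM with BPA. Vehicle replicates 1 and 3 lay above all BPA libraries and vehicle replicate 2 lay among them. With 11 to 40 counts per library, its log2 fold change of -0.43 had a 95% interval from -1.13 to 0.26, which reached furthest below 0 of all members. It was -0.13 without vehicle replicate 1, -0.26 without BPA replicate 1, -0.64 without BPA replicate 2 and -0.69 without vehicle replicate 2. For Ldha, vehicle libraries held 145, 170 and 196 CPM and BPA libraries 167, 186 and 171 CPM. The vehicle values spanned all BPA values, and the log2 fold change was 0.04 (SE 0.11, 95% interval -0.20 to 0.27).

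Of the 17 enzymes, 4 lay above 0 and 13 below, with a median log2 fold change of -0.03 and a range from -0.43 (Pgk1) to 0.28 (Gapdh), and none had groups that did not overlap. Hexokinase Hk1, which starts the pathway, had a mean of 212 ± 13.4 CPM with vehicle and 202 ± 10.7 CPM with BPA (SD, n = 3 each). Gpi1, glucose-6-phosphate isomerase, stood at 127 ± 13.2 and 118 ± 5.64 CPM. The liver-type and muscle-type phosphofructokinases Pfkl and Pfkm had log2 fold changes of -0.01 and -0.02, while the platelet-type Pfkp had 0.16 (95% interval -0.08 to 0.40). Aldoa lay at -0.13, the brain-type aldolase Aldoc at 0.00, and the triose phosphate isomerase Tpi1 at -0.05. Pgam1, the mutase, had a log2 fold change of 0.22 with an interval from -0.38 to 0.82 at 11 to 47 counts per library. The enolases Eno1 and Eno2 stood at -0.03 and -0.05, and Eno2 is the form enriched in neurons. Pkm, with 506 ± 33.4 CPM in vehicle and 475 ± 51.0 CPM in BPA libraries, had -0.09, and Ldhb had -0.04. Within single libraries the enzymes did not share one order: BPA replicate 3 was lowest for 5 of the 17 enzymes and vehicle replicate 1 for 4, while vehicle replicate 2 was highest for 5.

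**Figure D2:**
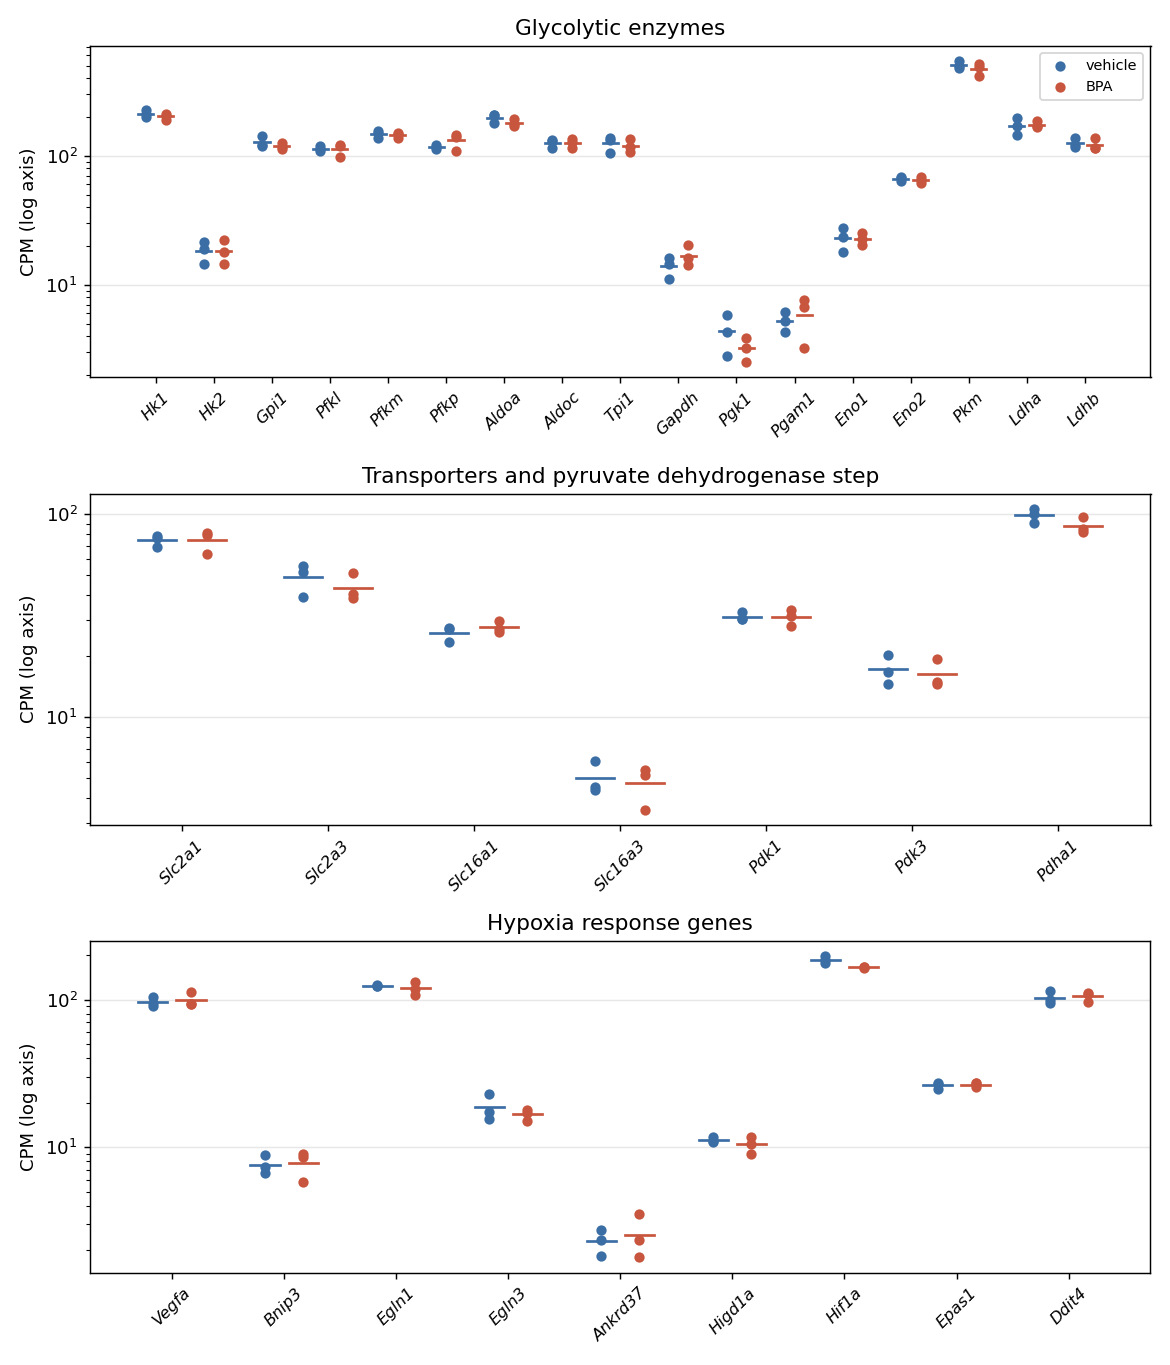
CPM (log axis) of each gene in the 3 vehicle and 3 BPA libraries, with a bar at each group mean, in separate panels for the enzymes, for the transporters and pyruvate dehydrogenase step, and for the hypoxia response genes. Vehicle and BPA points overlap for every gene other than Hif1a, whose BPA libraries sit at 164 to 166 CPM below vehicle libraries at 178 to 196 CPM.

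Among the transporters, Slc2a1 (GLUT1), the glucose carrier of the blood-brain barrier and of most dividing cells, had 69.0, 77.9 and 76.7 CPM with vehicle and 79.0, 80.9 and 63.9 CPM with BPA. BPA replicates held both its highest and its lowest value, and the log2 fold change was 0.01 (95% interval -0.24 to 0.26). Slc2a3 (GLUT3), the glucose carrier of neurons, had 55.9, 39.1 and 52.1 CPM in vehicle libraries and 40.4, 38.8 and 51.4 CPM in BPA libraries. Both groups held values near 39 and above 51 CPM, and the log2 fold change was -0.19 (SE 0.15, 95% interval -0.50 to 0.13). It ranged from -0.33 without vehicle replicate 2 and -0.31 without BPA replicate 3 to -0.11 without BPA replicate 2 and -0.08 without vehicle replicate 1. Slc16a1 (MCT1), a carrier of lactate and pyruvate, was at 23.5, 27.2 and 27.4 CPM with vehicle and at 26.4, 27.1 and 29.8 CPM with BPA. The groups overlapped at a log2 fold change of 0.09 (95% interval -0.19 to 0.37), which was 0.02 without vehicle replicate 1 and 0.04 without BPA replicate 3. Slc16a3 (MCT4), the lactate exporter of glycolytic cells, was the least abundant member per length, at 0.916 CPM per kilobase and 12 to 35 counts per library, with a log2 fold change of -0.02 (95% interval -0.58 to 0.54). The summed level of the 4 transporters was 149 to 162 CPM in vehicle and 149 to 152 CPM in BPA libraries.

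The pyruvate dehydrogenase step was covered by Pdha1, the catalytic alpha subunit of the complex, and by Pdk1 and Pdk3, kinases that inactivate it by phosphorylating that subunit. Pdha1 had 101, 90.8 and 107 CPM in the vehicle libraries and 82.1, 96.5 and 84.3 CPM in the BPA libraries. BPA replicate 2 lay above vehicle replicate 2, so the groups overlapped, and the log2 fold change was -0.18 (SE 0.11, 95% interval -0.41 to 0.06). Pdk3 had 16.8, 14.6 and 20.3 CPM with vehicle and 14.9, 19.3 and 14.6 CPM with BPA. Its values mixed between groups at a log2 fold change of -0.06 (95% interval -0.43 to 0.32). Pdk1 stood at 31.3 ± 1.56 CPM with vehicle and 31.2 ± 2.76 CPM with BPA (SD, n = 3 each), a log2 fold change of -0.01.

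Of the hypoxia response genes, Hif1a, which encodes the oxygen-regulated alpha subunit of HIF-1, was the 1 member of all 33 whose groups did not overlap, where 6.75% of all genes tested did not overlap, 3.19% with BPA higher and 3.56% with BPA lower. The gene (ENSMUSG00000021109.13) lies at chr12:73901375-73947530 on the plus strand of GRCm38. Hif1a had 185, 196 and 178 CPM in the vehicle libraries and 164, 166 and 166 CPM in the BPA libraries. All 3 BPA values lay below the lowest vehicle value, and the SD was 9.17 CPM in the vehicle group and 0.995 CPM in the BPA group. The log2 fold change was -0.17 (SE 0.09, 95% interval -0.37 to 0.02), and in edgeR's quasi-likelihood test the unadjusted p was 0.079 and the Benjamini-Hochberg adjusted p was 0.9998. Omitting any single library left the fold change between -0.21 and -0.13. With 1 library fewer, groups fail to overlap more often over all genes as well. Without vehicle replicate 2 the count was 5 of 33 members (15.2%) against 19.7% of all genes, without BPA replicate 2 it was 6 (18.2%) against 19.7%, and without BPA replicate 3 it was 4 (12.1%) against 14.9%. Without vehicle replicate 1 it was 2 (6.06%) against 2154 of 13925 genes tested, without BPA replicate 1 also 2 against 13.5%, and without vehicle replicate 3 it was 1 (3.03%) against 12.2%. In each of these settings the members' share lay below that of all genes.

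Beside Hif1a, markers of the ventral telencephalon, the source of cortical interneurons, had lower values with BPA: of 10 tested, 10 had a fold change below 0, 7 had groups that did not overlap, and 4 had an unadjusted p under 0.05 (3.56% and 1.18% of all genes with BPA lower), and their sum was 1010 to 1155 CPM with vehicle and 884 to 964 CPM with BPA. None passed the threshold, the smallest adjusted p over all genes being 0.251 in edgeR's quasi-likelihood test with Benjamini-Hochberg adjustment, and no marker was at 0 in all libraries. This list was written with earlier results of these libraries known, and its part in the Hif1a values was not tested.

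Vegfa, the vascular growth factor induced by HIF, had 90.0, 105 and 95.5 CPM with vehicle and 112, 92.8 and 93.9 CPM with BPA. The BPA group held the highest value and the vehicle group the lowest, at a log2 fold change of 0.05 (SE 0.11, 95% interval -0.19 to 0.29). Egln3, a prolyl hydroxylase that is itself a HIF target, was at 15.6, 17.2 and 23.1 CPM with vehicle and at 15.1, 17.1 and 17.8 CPM with BPA. Vehicle replicate 3 stood above the other 5 libraries, which lay close together, and the log2 fold change was -0.16 (95% interval -0.53 to 0.21). Egln1, the main prolyl hydroxylase acting on HIF alpha subunits, had 124 ± 1.10 CPM with vehicle and 119 ± 12.1 CPM with BPA (SD, n = 3 each). Epas1, which encodes HIF-2 alpha and is abundant in endothelial cells, had the smallest spread of all members, a coefficient of variation of 3.81% over 6 libraries, and a log2 fold change of 0.01 (95% interval -0.26 to 0.28). Ddit4, a stress-induced inhibitor of mTOR signalling, was the most abundant hypoxia response gene per length at 59.3 CPM per kilobase, with a log2 fold change of 0.03. The mitophagy receptor Bnip3 (0.06), the HIF target Ankrd37 (0.09) and the mitochondrial protein gene Higd1a (-0.08) had 11 to 78 counts per library and intervals that reached -0.67 and 0.84. Over the 9 genes, 5 lay above 0 and 4 below, with a median log2 fold change of 0.01 and a range from -0.17 to 0.09.

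**Figure D3:**
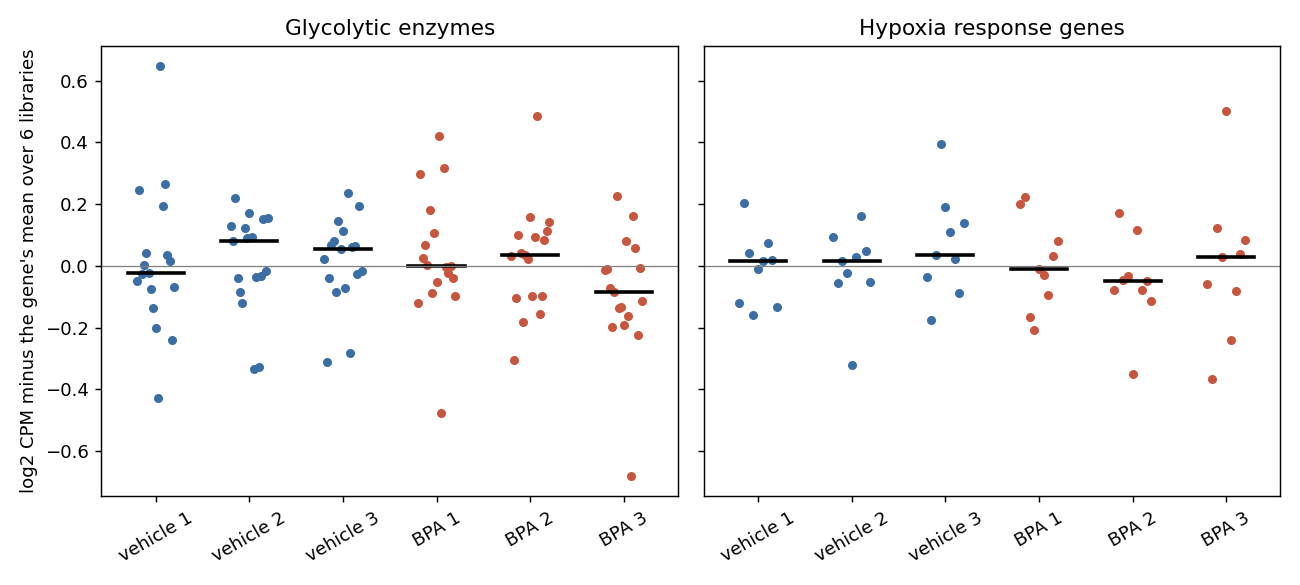
Log2 CPM of each gene minus its mean over the 6 libraries (y axis), for the 17 glycolytic enzymes and the 9 hypoxia response genes in each library, with a bar at the median. Medians of the enzymes ran from -0.08 (BPA replicate 3) to 0.08 (vehicle replicate 2) and those of the hypoxia response genes from -0.05 (BPA replicate 2) to 0.03 (vehicle replicate 3).

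The mix of isoenzymes was set by comparing paralogs per length of merged exons within each library, which does not depend on the scaling between libraries. The size of each ratio depends on the length used, whereas its difference between groups on the log2 scale does not. Hk1 dominated over Hk2, with a Hk2 to Hk1 ratio of 0.121 in vehicle and 0.126 in BPA libraries. Pfkl stood at 0.385 and 0.386 of Pfkm, and Pfkp at 0.198 and 0.224. Merged exons are much longer than the main transcript for Pfkp (13401 against 4145 bases) and Pfkl (6675 against 3730), less so for Pfkm (3340 against 2879). Counts over the 6 libraries lay closer together, at 4292 for Pfkp, 3987 for Pfkl and 5134 for Pfkm. The neuronal Eno2 was listed 3.36 times as high as Eno1 with vehicle and 3.26 times with BPA, or 2.75 and 2.60 times once counts on near-identical copies were added to Eno1. Per 100 words of read length found in no other gene, the order was reversed, with 143.6 counts for Eno1 and 83.35 for Eno2. Which enolase was higher is therefore not settled. Per merged exon length (1570 and 3310 bases), Ldhb exceeded Ldha by 1.57 times with vehicle and 1.47 times with BPA. Their main transcripts have 1304 and 1766 bases. Without scaling by length, Ldha had the more counts, 5979 against 4370 over the 6 libraries, so which of the 2 was higher is not settled. Slc2a3 stood at 0.315 and 0.282 of Slc2a1. Slc16a3 was at 0.159 and 0.139 of Slc16a1, Egln3 at 0.200 and 0.189 of Egln1, and Pdk3 at 1.66 and 1.58 times Pdk1. The order of Pdk3 and Pdk1 rests on scaling by length, since Pdk1 had the more counts, 1092 against 585 over the 6 libraries.

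For 2 of 11 pairs the groups did not overlap. The log2 ratio of Epas1 to Hif1a was -2.71, -2.77 and -2.77 with vehicle and -2.53, -2.63 and -2.54 with BPA. Every BPA value was the higher, by 0.18 on average (exact two-sided permutation p = 0.1, the smallest that 3 against 3 allows, 0.55 after Benjamini-Hochberg adjustment over 11 pairs). Epas1 itself had a log2 fold change of 0.01 and Hif1a of -0.17, so this ratio is not a result separate from the Hif1a values above. The log2 ratio of Aldoc to Aldoa was -0.82, -0.79 and -0.85 with vehicle and -0.56, -0.77 and -0.75 with BPA. This difference of 0.12 also had an exact permutation p of 0.1 and an adjusted p of 0.55, and BPA replicate 1 lay apart from the other BPA libraries. For the remaining pairs the exact permutation p ran from 0.4 to 0.9 and the adjusted value from 0.88 to 0.9.

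Levels of several glycolytic genes are uncertain, since their sequence recurs elsewhere in the genome. Sharing was measured as the percentage of the 50-base words (the read length) of a gene's main transcript that also occur, on either strand, in transcripts of another gene. For 14 of the 33 genes the value was 0, for 9 it was over 20% and for 4 it was over 60%: Gapdh 82.5%, Eno1 72.2%, Pgk1 68.0% and Bnip3 62.5%. Words of Gapdh recurred in 213 pseudogenes. The transporters Slc2a3, Slc16a1 and Slc16a3, the kinases Pdk1 and Pdk3, and Vegfa, Egln1, Egln3, Epas1 and Ddit4 shared none. Overlapping neighbours shared words as well, with Pfkp at 17.1% (Pitrm1), Pdha1 at 16.9% (mainly Map3k15) and Hif1a at 7.25% (mainly the antisense gene Gm15283). Whether reads with several alignments were counted, and whether strand was used, is not given in the sources used here.

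**Figure D4:**
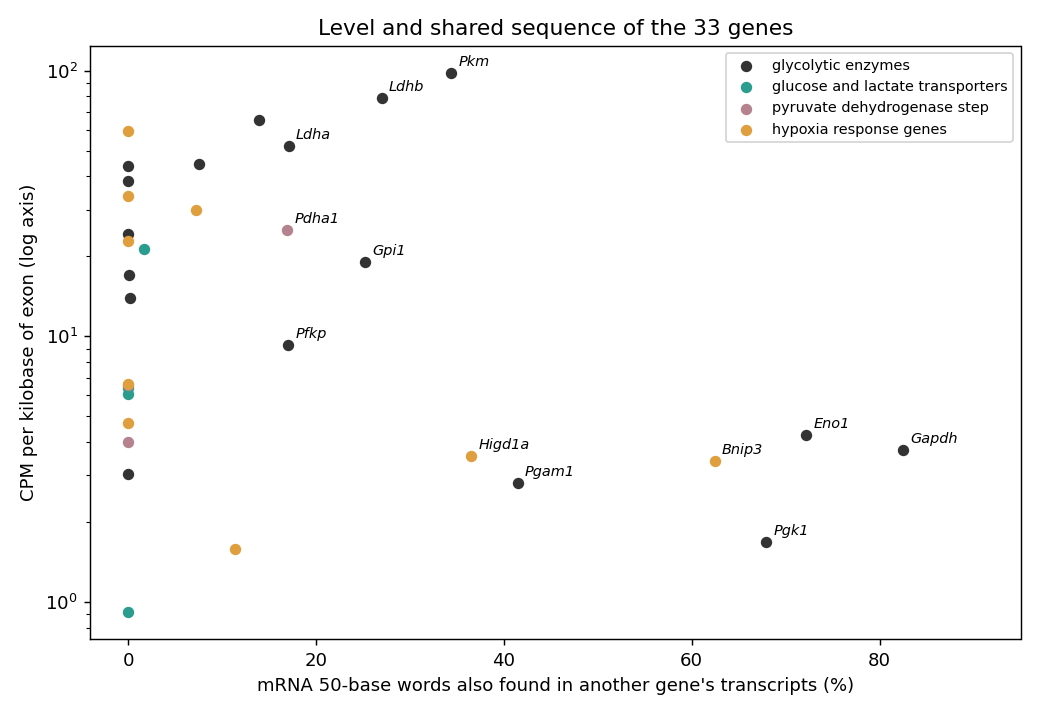
Mean level (CPM per kilobase of exon, log axis) of the 33 genes against the percentage of their main transcript's 50-base words found in another gene's transcripts, coloured by role. The 4 genes over 60% (Gapdh, Eno1, Pgk1, Bnip3) lie between 1.68 and 4.26 CPM per kilobase, whereas genes with less sharing range from 0.916 to 98.0 CPM per kilobase.

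Most counts on Gapdh and its copies lay on 1 copy. Gapdh (ENSMUSG00000057666.18) lies at chr6:125161715-125166467 on the minus strand of GRCm38. Over the 6 libraries the Gapdh row had 536 counts, and 82 of its 89 copies in the table together had 2428, so that copies took 81.9% of the sum (76.2% to 86.9% by library). A single processed pseudogene, Gm13394 (chr2:28933610-28934609, minus strand, GRCm38, 1 exon), had 2014 of these: 400, 420 and 257 counts in the vehicle libraries and 349, 423 and 165 in the BPA libraries. Its count exceeded that of Gapdh in every library. Aligned over the 999 bases of the Gapdh coding sequence, Gm13394 was identical at 998. The sole difference, A25C, stands in the following 60 bases of each, with positions counted from 1 at the 5′ end of the window, the Gapdh base first and the differing base in capitals; the Gapdh window is chr6:125162981-125163040 (minus strand, exon 4, coding) and that of Gm13394 is chr2:28934229-28934288 (minus strand, GRCm38).
Gapdh: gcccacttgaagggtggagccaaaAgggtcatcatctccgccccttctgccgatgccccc
Gm13394: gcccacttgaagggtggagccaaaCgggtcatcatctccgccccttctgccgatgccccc

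Of the 951 words of 50 bases in Gm13394, 50 occur in no other gene's transcripts, and these start at positions 297 to 346 of its transcript, so that each one spans the differing base at position 346. Gm13394 thus had 4028 counts per 100 words of its own, whereas Gapdh, with 240 such words of 1371, had 223. The cause was not tested. Gm13394 itself had a log2 fold change of 0.03 (95% interval -0.25 to 0.32). With all copies added, Gapdh stood at 85.0, 87.4 and 74.7 CPM with vehicle and 85.7, 93.1 and 77.9 CPM with BPA, several times its listed level, and the log2 fold change was 0.06 (95% interval -0.18 to 0.29) in place of 0.28.

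Other members behaved in different ways. Gpi1 had 4329 counts and its pseudogene Gm1840 on chromosome 8, identical at 1409 of 1429 aligned coding bases, had 3066, or 41.5% of the sum. Copies held 36.8% of the sum for Bnip3, 28.1% for Higd1a, 18.8% for Eno1 (mainly Eno1b), 11.3% for Ldhb, 8.18% for Pgam1 and 6.04% for Aldoa. The Bnip3 copy Gm16439 had 161 counts although none of its 515 words was its own. By contrast Pgk1, whose copy Pgk1-rs7 matches it at all 1250 aligned coding bases, had 133 counts and its copies 2 in all, and Pgam1, identical to Pgam1-ps2 over 762 bases, had 202 counts. Per 100 words of its own Pgk1 had 23.4 counts, against 1112 for Pkm and 420 for Ldha. Summing each gene with its copies left 0 of 33 members past the threshold, and Hif1a was again the 1 member without overlap.

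**Figure D5:**
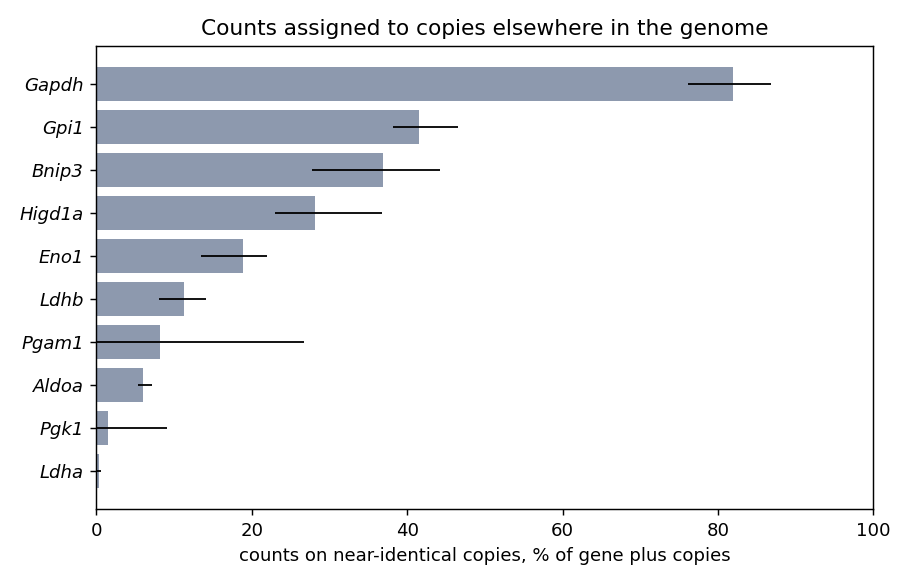
Counts on near-identical copies as a percentage of the gene plus its copies, summed over 6 libraries (bars), with the range over single libraries (lines), for the 10 genes with such copies in the table. Gapdh has 81.9% of its counts on copies and Gpi1 41.5%, whereas Pgk1 has 1.48% and Ldha 0.317%.

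Beyond their roles, the genes shared short sequences upstream of their starts. HIF binds elements built around the letters ACGTG or GCGTG, and these were searched on both strands in the 250 bases before each RefSeq start (GRCm38.p6). The palindrome CACGTG counts on each strand. RefSeq promoters were matched for 31 of the 33 genes, with 44 starts in all, and Slc2a3 and Epas1 were not matched. At least 1 of these letter strings was found in 35 of the 44 (79.5%), compared with 38.6% of all 32851 promoters of that length, and ACGTG in 20 (45.5%), compared with 16.6%. More than 1 hit was found in 23 (52.3%) and in 16.7% of all promoters. By role, 21 of 28 enzyme promoters (75%), all 3 transporter promoters, 3 of 4 of the pyruvate dehydrogenase step and 8 of 9 hypoxia response promoters held a hit. Vegfa had 0 hits at its first listed start and 2 at its second. For 36 of the 44 starts the bases just after the start occurred in a transcript of the same gene, so the other starts are less certain. Some starts of 1 gene lay close together, as for Eno1, Aldoa and Pfkm, so that their windows overlapped and the same hits were counted again. The genes were also listed for roles in glycolysis and the hypoxia response, so the share with hits is not independent of their choice. No test was made, base composition was not matched, and a match is a description of letters, not a binding site. The promoters with most hits among enzymes and hypoxia response genes, Ldha (chr7:46845554-46845803, plus strand, 5 hits) and Bnip3 (chr7:138909507-138909756, minus strand, 5 hits), and that of Hif1a (chr12:73907617-73907866, plus strand, 3 hits) are printed 5′ to 3′ with the hits in capitals on whichever strand they lie.
Ldha: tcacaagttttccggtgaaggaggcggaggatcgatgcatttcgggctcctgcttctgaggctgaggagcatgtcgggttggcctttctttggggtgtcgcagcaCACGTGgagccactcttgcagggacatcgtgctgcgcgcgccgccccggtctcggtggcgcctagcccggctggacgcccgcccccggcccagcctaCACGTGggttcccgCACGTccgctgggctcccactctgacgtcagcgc
Bnip3: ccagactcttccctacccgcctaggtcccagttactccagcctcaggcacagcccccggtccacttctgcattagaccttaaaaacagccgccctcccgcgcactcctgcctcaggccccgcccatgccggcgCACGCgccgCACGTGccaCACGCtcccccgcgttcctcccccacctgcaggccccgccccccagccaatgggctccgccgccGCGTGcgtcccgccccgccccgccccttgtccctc
Hif1a: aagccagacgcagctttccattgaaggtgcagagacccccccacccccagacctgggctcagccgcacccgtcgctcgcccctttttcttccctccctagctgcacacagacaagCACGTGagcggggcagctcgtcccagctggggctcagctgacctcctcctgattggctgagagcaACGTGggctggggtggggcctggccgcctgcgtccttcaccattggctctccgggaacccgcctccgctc

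Fold changes of the 10 members with at least 3 hits in a promoter lay on both sides of 0. With 5 hits, Ldha had a log2 fold change of 0.04 and Bnip3 of 0.06. With 4 hits, Slc16a1 had 0.09, Pdk3 -0.06 and Ankrd37 0.09. With 3 hits, Hk1 had -0.07, Pfkp 0.16, Pgam1 0.22, Pdha1 -0.18 and Hif1a -0.17. Of the members without a hit in any matched promoter, Gpi1 had -0.11, Tpi1 -0.05 and Eno2 -0.05.

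Other genes of the same pathways were read from lists fixed by role, and 0 of them passed the adjusted threshold in any list. Of 14 other glycolysis genes tested, 6 lay above 0 and 8 below. Eno3, the muscle enolase, was the 1 with an unadjusted p under 0.05, with 5.59, 5.77 and 7.30 CPM in vehicle and 10.52, 7.15 and 9.04 CPM in BPA libraries. Its groups overlapped at 7.15 and 7.30 CPM, and the log2 fold change was 0.53 (95% interval 0.05 to 1.01). Of 11 other genes of pyruvate entry into mitochondria, 4 lay above 0 and 7 below, and 3 had groups that did not overlap, each lower in BPA, where 3.56% of all genes tested did so. These were Dlat, the acetyltransferase subunit of the pyruvate dehydrogenase complex (log2 fold change -0.20), Pdp2, a phosphatase that reactivates the complex (-0.27), and Mpc2, a subunit of the mitochondrial pyruvate carrier (-0.20). The 95% interval of each included 0, the nearest bound being 0.04 for Dlat. They were singled out after their values were seen.

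Among 30 other hypoxia response genes tested, 19 lay above 0 and 11 below, with a median log2 fold change of 0.07. P4ha2, a collagen prolyl hydroxylase, had 3.82, 5.35 and 5.72 CPM with vehicle and 8.48, 7.64 and 5.54 CPM with BPA, a log2 fold change of 0.59 (95% interval 0.06 to 1.11). Its groups overlapped through BPA replicate 3. Mif, a cytokine gene, had 16.5, 20.3 and 21.3 CPM with vehicle and 15.6, 14.3 and 16.1 CPM with BPA, a log2 fold change of -0.34 (95% interval -0.68 to -0.001). All its BPA values lay below the vehicle values. Of 11 HIF subunits and regulators, Tceb2 (elongin B, part of the ligase that marks HIF alpha subunits for destruction) had 14.3, 15.9 and 17.0 CPM with vehicle and 11.2, 12.5 and 12.3 CPM with BPA. Its groups did not overlap, at a log2 fold change of -0.39 (95% interval -0.74 to -0.04). These 3 genes, with Eno3, were those at an unadjusted p under 0.05 in these lists. The adjusted p of each in edgeR's quasi-likelihood test with Benjamini-Hochberg adjustment was 0.9998. The unadjusted level was reached by 1 of 14 other glycolysis genes, 1 of 11 HIF subunits and regulators and 0 of 11 pyruvate entry genes. Among 30 other hypoxia response genes it was reached by P4ha2 and Mif, and over all genes tested by 2.20%. The 7 pentose phosphate pathway genes (2 above 0, 5 below) and 9 other glucose and lactate transporters (4 above, 5 below) had 0 at that level. Groups also did not overlap, with BPA lower, for Taldo1 of the pentose phosphate pathway (-0.12) and the HIF target Angptl4 (-0.58), named after their values were seen. With Mif and Tceb2, these were 1 of 7 pentose phosphate genes, 2 of 30 other hypoxia response genes and 1 of 11 HIF subunits and regulators. Over all genes tested, 3.56% had groups that did not overlap with BPA lower. Some genes of these lists had too few counts to be assessed. Epo, Pgk2 and Slc5a1 had 0 counts in every library, which allows up to 0.422 to 0.875 CPM. Car9 had 0 to 1 and Adm 2 to 9 counts. Such detection limits cover counting error only, whereas the 95% intervals of fold changes also include the spread between libraries.

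Markers of other cell types that the dissection could hold gave the following sums. Endothelial markers lay at 177 to 192 CPM with vehicle and 174 to 190.1 CPM with BPA, pericyte and meningeal markers at 125 to 203 and 132 to 181 CPM, and microglia markers at 58.7 to 78.5 and 67.5 to 71.7 CPM. Erythroid markers, from cells that carry oxygen, ran from 286 to 599 CPM with vehicle and from 334 to 416 CPM with BPA. Of 7 tested erythroid genes, 6 lay below 0, where 49.5% of all genes did. Hba-a1, lower with BPA, was the 1 at an unadjusted p under 0.05 (1.18% of all genes with BPA lower), and its groups overlapped. Immediate early genes stood at 119 to 151 and 122 to 141 CPM. Except for the erythroid and ventral lists, no marker list had a gene at an unadjusted p under 0.05 or a group difference without overlap.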

How the data were processed

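Read counts per gene, deposited by the authors for 6 libraries, were used. The study's methods describe stranded libraries read from one end over 50 bases, alignment to GRCm38 by TopHat2 2.0.14, and counting by featureCounts on GENCODE models. StringTie 1.2.4 is also named in the submitters' processing notes. Strand and multi-mapping options are not given in the sources used here.

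Groups came from the labels, and replicate numbers followed accession order and pair no samples. In R 4.3.3, genes were kept by filterByExpr of edgeR 4.0.16 (minimum count 10, minimum total 15; 99.7% of counts), TMM normalized, and compared between groups in edgeR's quasi-likelihood test (no covariate). P-values were adjusted over all genes after Benjamini-Hochberg, with calls at 0.1. The script was tested on simulated data. CPM used TMM-scaled library sizes, and centred log2 values a prior count of 2. Standard errors are those implied by the test statistic. A floor of 3 counts set the detection limit. Paralog ratios were compared by exact permutation.

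Full values were given for members with an unadjusted p under 0.05 or groups without overlap, for the 2 largest changes in each role group, and for Gapdh, Pgk1, Ldha, Slc2a1, Hif1a and Vegfa. From the pathway lists, genes at an unadjusted p under 0.05 were named. Members and lists were chosen with earlier results of these data known.

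Coordinates, exon lengths and 50-base words came from GENCODE M21 (GRCm38). Of 2 gene IDs named Aldoa, the first was used. A copy lay elsewhere, shared at least 5% of the words and was at most 1.5 times as long. Promoters came from RefSeq (GRCm38.p6). Alternatives were other scalings, filters and tests, DESeq2 1.42.0 and limma-voom (limma 3.58.1) among them, omission of each library, and summing with copies. Omission of 2 libraries together was chosen after seeing the data.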

Additional observations from a re-analysis of the deposited data

How the results depend on the processing

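The count of members past the adjusted threshold was 0 under every alternative run, while counts over all genes ranged from 0 to 19 (19 without a filter). Omitting single libraries gave 0 to 2 members at an unadjusted p under 0.05, 1 to 6 of 33 members without overlap (3.03% to 18.2%, against 12.2% to 19.7% of all genes), and a median log2 fold change of the hypoxia response genes from -0.0672 to -0.000117, compared with 0.00806 with all libraries. Without vehicle replicate 2 and BPA replicate 2, chosen after seeing the data, these values were 4, 12 (36.4%, against 35.2% of all genes) and -0.0231. The direction of small differences depended on the libraries kept: omitting 1 library, or these 2 together, gave log2 fold changes of -0.0671 to 0.145 for Ldha, -0.0517 to 0.102 for Slc2a1, -0.0515 to 0.171 for Vegfa, -0.311 to 0.062 for Pdk3 and -0.269 to 0.0113 for Egln3. The larger changes kept their sign but not their size, with 0.104 to 0.559 for Gapdh, -0.89 to -0.127 for Pgk1, -0.329 to -0.0752 for Slc2a3, 0.0164 to 0.141 for Slc16a1, and -0.312 to -0.128 for Pdha1. Log2 ratio differences (BPA minus vehicle) were -0.14 to 0.242 for Hk2 over Hk1, -0.0268 to 0.0633 for Pfkl over Pfkm, -0.173 to 0.0946 for Eno2 over Eno1, -0.345 to 0.0669 for Slc16a3 over Slc16a1, -0.273 to 0.0718 for Pdk3 over Pdk1 and -0.205 to 0.0807 for Egln3 over Egln1. With both libraries omitted, Ldha (-0.00663) and Slc2a1 (-0.00508) also lay below 0. The cause of these shifts was not tested, and each omission also left fewer samples. Scaling, filter, test and summing with copies reversed no fold change of the 11 members given with full values. No paired analysis was possible because the labels give no replicate numbers shared between the groups. Depth limits Ankrd37, Pgk1, Pgam1 and Slc16a3 most, with a lowest count of 11 or 12 per library.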
